A study of Bombyx mori with 4 samples.

Results

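Open chromatin was described on 3 long sequences of the silkworm genome, numbered 11, 23 and 24 in the deposited peak lists. Every peak listed on sequences BHWX01000011.1, BHWX01000023.1 or BHWX01000024.1 was taken, whatever its height, which gave 22725 of the 169801 peaks of the series. Brain 1 contributed 4783 of them, brain 2 1595, fat body 1 14276 and fat body 2 2071. In full, the lists held 36420 (brain 1), 11572 (brain 2), 107057 (fat body 1) and 14752 (fat body 2) peaks. The samples were ATAC-seq libraries from the brain and from the fat body of wild-type silkworm larvae (Bombyx mori, strain P50), 2 libraries per tissue, all titled with the stage code L5D3. ATAC-seq cuts and tags open chromatin with a transposase, and the fat body is the insect organ of storage and of haemolymph protein synthesis. Both tissues hold several cell types, and the labels leave unstated whether separate animals were used for the 2 libraries of each. The peak lists carry no gene names, so tissue identity was not checked against marker genes.

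Silkworm chromosomes are holocentric: they have no single centromere, and the spindle attaches along their length. Chromosomes 11, 23 and 24 of this species are known fusion chromosomes, each joining segments that are separate chromosomes in many other moths and butterflies. Such fusions leave chromosomes that are long for the karyotype and whose segments differ in origin. That sequences 11, 23 and 24 of the lists are chromosomes 11, 23 and 24 is unproven here, since the lists give only sequence numbers, and the places of the joins were not analysed here. The names of the sequences share the prefix BHWX01, and no other name of the genome build was used here.

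Sequence 11 reached to 20.4 Mb, sequence 23 to 21.5 Mb and sequence 24 to 17.3 Mb, each length being the last base of any peak in any list. They were set beside the other 24 sequences numbered from 2 to 28, which were 8.36 to 19.0 Mb long. Sequence 23 was the longest of these 27 sequences, sequence 11 the 2nd longest and sequence 24 the 10th longest. Sequence 1 was kept apart, because chromosome 1 is the Z sex chromosome in the silkworm karyotype. The 3 sequences held 14.0% of the length of the 27.

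The libraries differed in ways that touch every value below. The lowest −log10 p was 6.69 in fat body 2 and between 5.01 and 5.03 in the other 3 lists, and the shortest peaks were 94 bp long in fat body 1 against 203 to 230 bp in the others. The lowest local background that could be recovered from a list was 1.38 reads in brain 1 and in fat body 1, 0.558 in brain 2 and 0.534 in fat body 2, so the lists numbered 1 and the lists numbered 2 stood apart in both tissues. The peak names did not divide the lists in this way. In brain 1 the peaks are named with the code 5L-4D, which is not that of its title. Brain 2 and fat body 1 share the code 5l3d_p_1e-5 in their peak names, and fat body 2 alone has q_1e-5. The lowest −log10 q was 5.04 in fat body 2, against 3.65 (brain 1), 3.18 (brain 2) and 3.69 (fat body 1). Densities were therefore compared only within a list. Peak lists hold no read depth, and how far depth, peak-calling settings or another stage contributed to the differences between lists was not tested.

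On the raw scale sequence 24 was the one that stood apart. It had 73.6 peaks per Mb (brain 1), 33.5 (brain 2), 234 (fat body 1) and 47.8 (fat body 2). Taken as one, the 24 other sequences had 82.7 peaks per Mb (brain 1), 25.9 (brain 2), 245 (fat body 1) and 32.9 (fat body 2). Sequence 24 was thus 1.29 times as dense as the others in brain 2 and 1.45 times in fat body 2 (3rd of 27 in both), but 0.890 times in brain 1 and 0.953 times in fat body 1 (24th of 27 in both). The direction followed the number of the library and not the tissue; what the numbers stand for is not stated in the labels.

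Sequence 11 had 84.3 peaks per Mb (brain 1), 23.4 (brain 2), 233 (fat body 1) and 28.1 (fat body 2). Its ratio to the others was 1.02 (brain 1), 0.903 (brain 2), 0.9497 (fat body 1) and 0.853 (fat body 2). Sequence 23 had 83.0 peaks per Mb (brain 1), 24.97 (brain 2), 255 (fat body 1) and 31.1 (fat body 2), with ratios between 0.944 and 1.04. Averaged over the 4 libraries, the log2 ratio was −0.11 ± 0.12 for sequence 11, −0.02 ± 0.08 for sequence 23 and 0.17 ± 0.41 for sequence 24 (SD, n = 4). None of the 3 means was larger in size than the spread between libraries.

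These raw values hide a dependence on length. Over the 24 other sequences, peak density fell with length in the libraries numbered 2, with a correlation between log2 density and log2 length of −0.90 in brain 2 and −0.94 in fat body 2 (Pearson, n = 24 sequences, which share a library). In the libraries numbered 1 it was 0.62 in brain 1 and −0.02 in fat body 1. In brain 2 the highest density among the others was 42.9 peaks per Mb on sequence 2, the shortest at 8.36 Mb, and the lowest was 19.5 on sequence 13. The 3 sequences lay above the line through the others in both libraries numbered 2, in both tissues.

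Sequence 24 stood at 1.44 times the line in brain 2 and 1.65 times in fat body 2, where the line gives 23.2 (brain 2) and 28.9 (fat body 2) peaks per Mb for a sequence of its length. Sequence 23 stood at 1.28 times the line in brain 2 and 1.32 times in fat body 2. Sequence 11 stood at 1.15 times the line in brain 2 and 1.14 times in fat body 2. In both of these libraries they were 1st, 2nd and 3rd of 27 in this order. On the log2 scale they were 0.53, 0.35 and 0.20 above the line in brain 2, and 0.73, 0.40 and 0.19 above it in fat body 2. The highest of the 24 others was 0.16 above it in brain 2 (sequence 5) and 0.15 in fat body 2 (sequence 17), and the spread of the others about the line was 0.12 and 0.11 (SD, n = 24). Sequence 11 cleared the others by a small margin, whereas sequence 24 cleared them by more than 3 times that spread in both libraries.

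In the libraries numbered 1 the 3 sequences had no such joint excess. Sequence 24 lay 0.867 times as high as the line in brain 1 (26th of 27) and 0.954 times in fat body 1 (24th). Sequence 23 lay at 0.925 times the line in brain 1 and at 1.04 times the line in fat body 1, and sequence 11 at 0.952 (brain 1) and 0.951 (fat body 1) times. When the lists numbered 1 were cut to their 11572 best peaks, the length of the brain 2 list, the correlation with length over the others was 0.36 in brain 1 and 0.45 in fat body 1, and sequence 24 was 14th (brain 1) and 25th (fat body 1) of 27. Sequences 11 and 23 are longer than any of the 24 others, so the line was extended to reach them. The line was drawn after the lists had been seen. The comparison rests on 1 library per tissue, and no test over sequences was made, since they are not replicates.

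**Figure D1:**
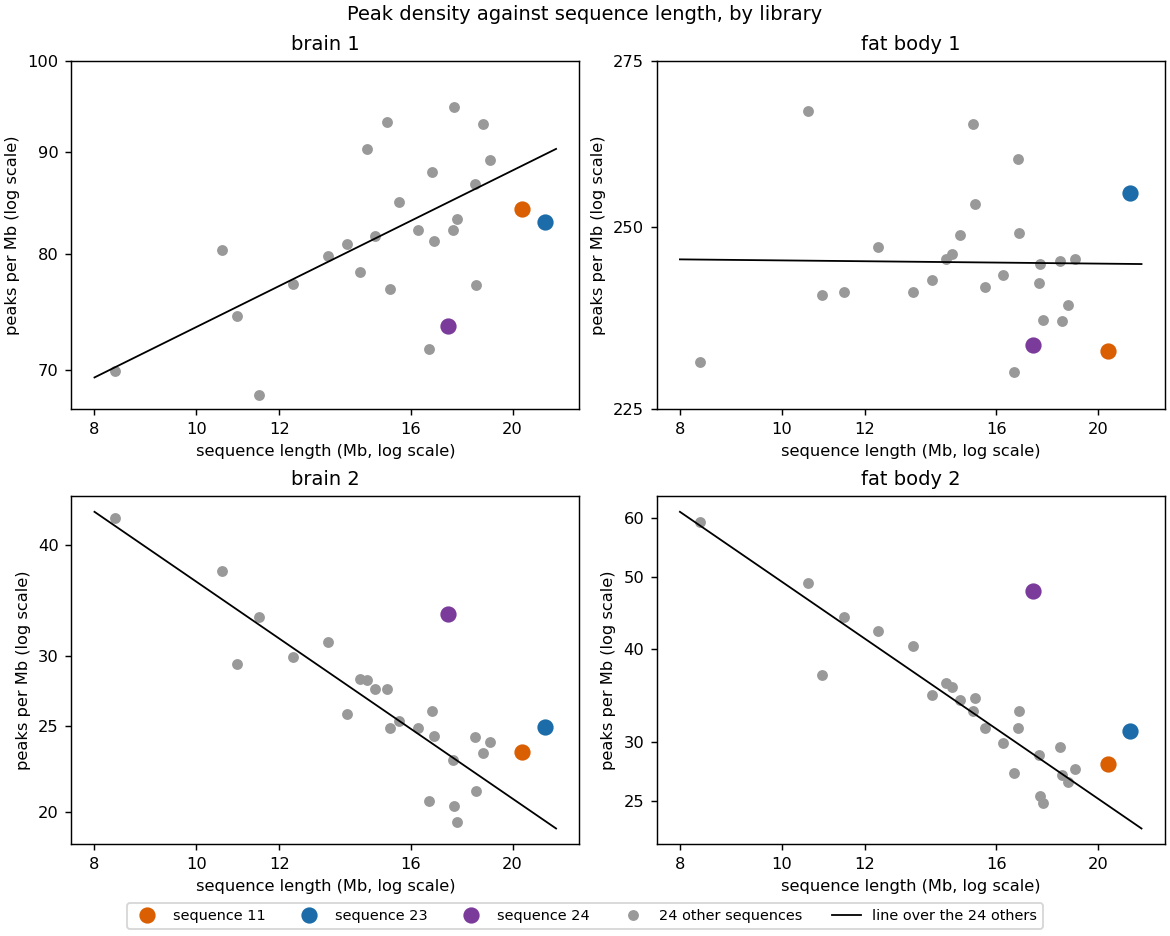
Peaks per Mb (log scale) against sequence length in Mb (log scale) in each of the 4 libraries; grey points are the 24 other sequences, coloured points sequences 11, 23 and 24, and the line is the least-squares line over the 24 others. In brain 2 and fat body 2 the grey points fall along a steep line (Pearson r −0.90 and −0.94) and the 3 coloured points lie above it; in brain 1 all 3 lie below the line, and in fat body 1 sequence 23 alone lies above it.

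In brain 2 the peak width and height of sequence 24 were close to those of the others. In fat body 2 its peaks were somewhat wider and lower. The median peak width on sequence 24 was 491 bp (brain 2) and 681 bp (fat body 2), against 492 bp and 633 bp on the others. Single sequences among the others ran from 565 bp (sequence 3) to 702 bp (sequence 7) in fat body 2. The authors' fold enrichment of the summits on sequence 24 had a median of 5.30 (brain 2) and 8.09 (fat body 2), against 5.39 and 8.53 on the others. In the libraries numbered 1 its median fold was 6.10 (brain 1) and 3.83 (fat body 1), against 5.54 and 3.99. The local background under its peaks had a median of 4.23 reads in brain 2 and 4.32 in fat body 2, against 4.12 and 4.20 on the others. Bases covered by peaks followed the counts. Sequence 24 had 17.4 kb covered per Mb in brain 2 and 32.4 kb in fat body 2, against medians of 13.1 and 21.0 kb over the others, while in brain 1 it had 37.4 kb against 39.9 kb and in fat body 1 47.6 kb against 49.7 kb.

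In bins of 0.5 Mb the excess of sequence 24 was spread over much of its length. In brain 2 it had 14 of 34 full bins (41.2%) above 19 peaks, the 90th percentile of the 717 bins of the others, and in fat body 2 it had 19 of 34 bins (55.9%) above 25 peaks, the 90th percentile there. In brain 1 no bin of sequence 24 was above the 90th percentile of the others, and in fat body 1 3 of 34 were. Sequence 11 had 2 of 40 such bins in brain 2 and 1 of 40 in fat body 2, and sequence 23 had 1 of 42 in brain 2 and 4 of 42 in fat body 2. In the libraries numbered 2, sequence 24 was thus dense over much of its length, whereas few bins of sequences 11 and 23 reached that level. In fat body 1, sequence 23 had 9 of 42 bins (21.4%) above the 90th percentile of the others.

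The densest bin of sequence 24 lay at 15 to 15.5 Mb in brain 2, with 29 peaks, and at 1 to 1.5 Mb and 2 to 2.5 Mb in fat body 2, with 37 peaks each. Its poorest bins lay at 9 to 9.5 Mb and 10.5 to 11 Mb in brain 2, with 7 peaks each, and at 13.5 to 14 Mb in fat body 2, with 10 peaks. Both libraries numbered 2 had a low stretch between 8.5 and 11.5 Mb with 1 bin standing up in it: the bins from 8.5 to 9.5 Mb held 10 and 7 peaks in brain 2 and 11 and 12 in fat body 2, the bin from 9.5 to 10 Mb held 15 (brain 2) and 27 (fat body 2), and the next 3 bins held 7 to 11 in brain 2 and 11 to 13 in fat body 2. Brain 1 had its poorest bin of this sequence at the start of that stretch, with 15 peaks at 8.5 to 9 Mb, against a median of 36.5 peaks over its 34 bins. Fat body 1 had its densest bin inside it, with 156 peaks at 9.5 to 10 Mb. This stretch begins at about the middle of the sequence.

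Each sequence was also divided at its midpoint into a front and a rear portion of equal length. On sequence 24 they differed little in 3 of the 4 libraries and more in fat body 2. The front portion had 73.8 peaks per Mb (brain 1), 34.0 (brain 2), 229 (fat body 1) and 53.1 (fat body 2). Its rear portion had 73.4 (brain 1), 33.0 (brain 2), 238 (fat body 1) and 42.5 (fat body 2). On the log2 scale the ratio of front over rear was 0.01 (brain 1), 0.04 (brain 2) and −0.05 (fat body 1). It was 0.32 in fat body 2, where the largest of the 24 others was 0.30 in size. Taken at a length of its own of 8.67 Mb, the front portion lay 0.27 below the line of the others on the log2 scale in brain 2 and 0.09 below in fat body 2, and the rear portion lay 0.31 (brain 2) and 0.41 (fat body 2) below. In these libraries both portions were thus denser than the line at the length of the whole sequence and less dense than the line at their own length. The line rises steeply as length falls, with slopes of −0.81 (brain 2) and −0.97 (fat body 2) on the log2 scales. A portion is therefore set against a higher line than the whole by construction. Portions of the 24 others were not set against it, so this comparison cannot set sequence 24 apart.

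Sequence 23 was the sequence whose front and rear differed most in the libraries numbered 2. In brain 2 its front portion had 19.6 peaks per Mb and its rear portion 30.4, and in fat body 2 the front portion had 24.5 and the rear 37.6. The log2 ratio was −0.63 in brain 2 and −0.62 in fat body 2, the largest in size of the 27 sequences in both libraries. The largest among the 24 others was 0.46 in size in brain 2 and 0.30 in fat body 2, both on sequence 8. In brain 1 the front portion of sequence 23 had 85.5 peaks per Mb and the rear 80.5 (log2 ratio 0.09), and in fat body 1 the front portion had 247 and the rear 263 (−0.09). Both of these lay inside the range of the others.

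The bins show where the change lay. Along the first 14 Mb of sequence 23 the counts went up and down between 3 and 17 peaks per bin in brain 2 and between 4 and 21 in fat body 2, with the lowest bin of both at 10.5 to 11 Mb. Along the full bins beyond 14 Mb they were 14 to 20 in brain 2 and 13 to 31 in fat body 2, with the highest bin of both at 19 to 19.5 Mb. That bin, 20 peaks in brain 2 and 31 in fat body 2, was the poorest of the sequence in brain 1, with 25 peaks against a median of 41, and held 110 peaks in fat body 1 against a median of 125.5. In fat body 1 the densest bin was at 15 to 15.5 Mb, with 170 peaks, and in brain 1 there were 2 such bins, at 1.5 to 2 Mb and 11 to 11.5 Mb, with 55 each. Bin counts of brain 2 and fat body 2 had a correlation of 0.90 over the 42 full bins of sequence 23, against 0.37 to 0.85 (median 0.69) within the 24 others. Those of brain 1 and fat body 1 had a correlation of −0.02, against 0.09 to 0.60 within the others. So on this sequence the 2 tissues shared their bin profile in the libraries numbered 2 and not in those numbered 1; bins are not replicates, and these correlations are descriptions.

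**Figure D2:**
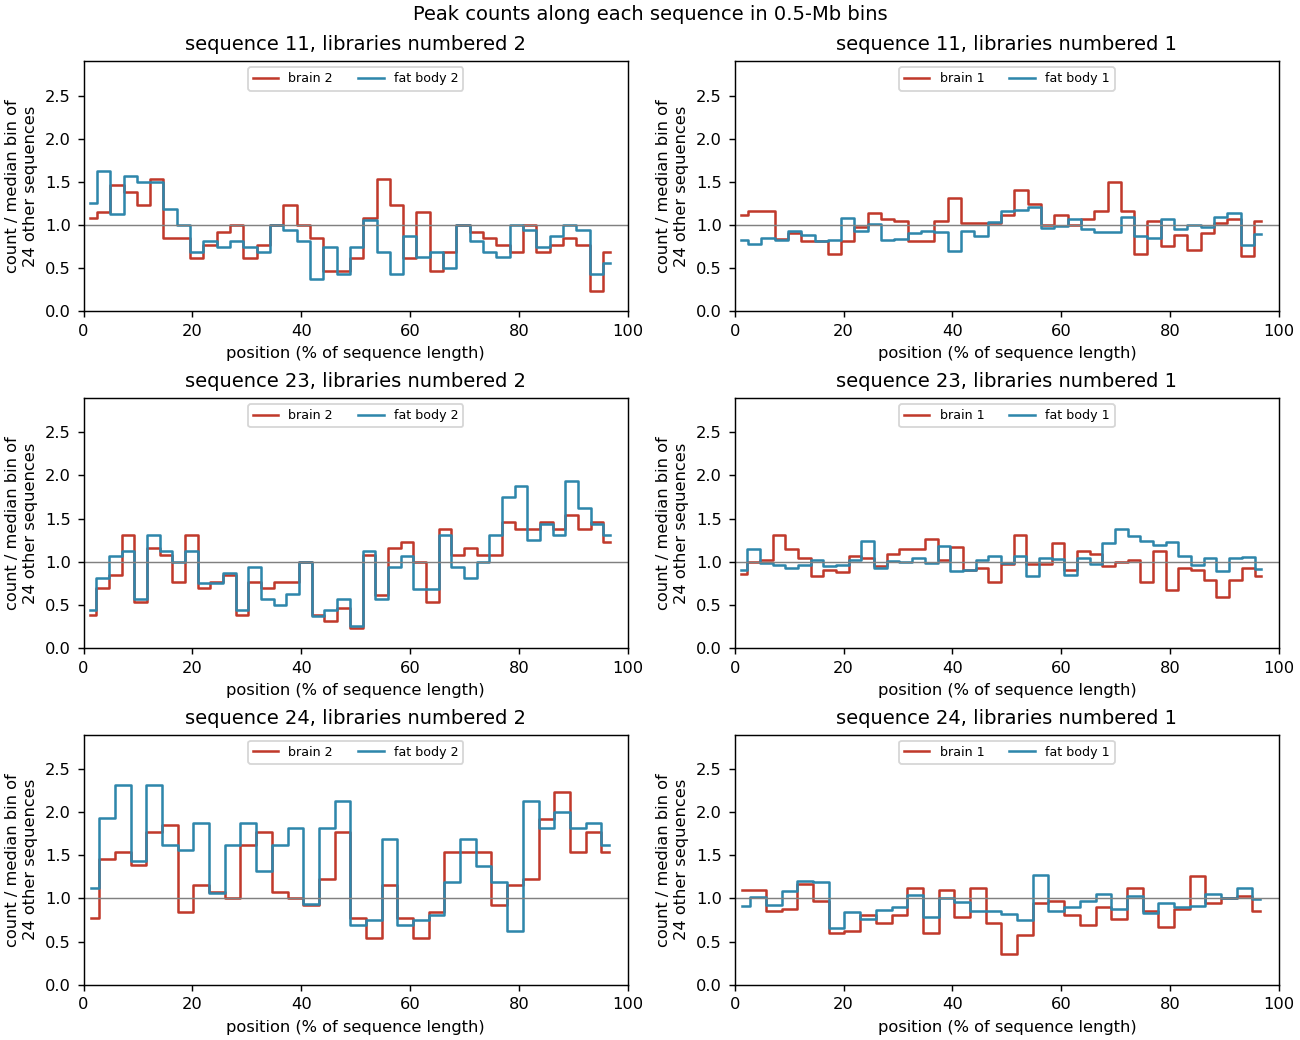
Peak counts along sequences 11, 23 and 24 in full bins of 0.5 Mb, each divided by the median bin count of the 24 other sequences in the same library, against position in percent of the sequence length; libraries numbered 2 are on the left, those numbered 1 on the right. On the left sequence 11 is high at its start, sequence 23 is high near its end and sequence 24 is high over most of its length, in brain 2 and in fat body 2 alike; on the right the profiles stay nearer to 1.

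A split point was also sought in 1 library and read in another, for all 27 sequences. The bin edge at least 2 Mb from both ends that best divided the counts of brain 2 stood at 14 Mb in sequence 23. Read in fat body 2, whose counts were not used in the choice, there were 24.8 peaks per Mb before this point and 42.9 after it. The log2 ratio was −0.79, the 2nd largest in size of 27. Bin counts of these 2 lists had a correlation of 0.90 on this sequence, so the reading is not independent of the choice. Chosen in fat body 2, the split stood at 16 Mb, and brain 2 had 21.5 peaks per Mb before it and 35.1 after it (−0.71, the largest of 27). Brain 1 at the 14 Mb split had 86.9 peaks per Mb before and 75.7 after, the other direction, and fat body 1 had 245 before and 272 after.

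Sequence 11 had a short dense stretch at its start. The split chosen in brain 2 stood at 3 Mb, and fat body 2 had 45.7 peaks per Mb before it and 25.1 after it (log2 ratio 0.87, the largest in size of 27). The split chosen in fat body 2 stood at 3.5 Mb, and brain 2 had 32.3 peaks per Mb before it and 21.5 after it (0.58, the 2nd largest of 27). Among the 24 others the largest size was 0.60 when read in fat body 2 and 0.57 when read in brain 2, both on sequence 16. In brain 1 the first 3 Mb of sequence 11 had 84.0 peaks per Mb and the rest 84.4, and in fat body 1 they had 208 and the rest 237. The stretch was therefore dense in the libraries numbered 2, level in brain 1 and thinner in fat body 1.

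The local background under the peaks was higher in this stretch in all 4 lists. Its median was 11.4 reads over the first 3 Mb and 9.58 over the rest in brain 1, 5.50 and 4.72 in brain 2, 10.2 and 8.30 in fat body 1, and 4.86 and 4.14 in fat body 2. Median fold enrichment was lower over the first 3 Mb than over the rest in brain 2 (4.75 and 5.31), fat body 1 (3.46 and 4.01) and fat body 2 (7.42 and 8.69), and higher in brain 1 (6.29 and 5.80). The part of the background in the peak density there was not tested. The rest of sequence 11 had 21.6 peaks per Mb in brain 2, between the 20.3 that the line gives for the whole sequence and the 23.1 that it gives for the 17.4 Mb of the rest. In fat body 2 it had 25.1, between 24.7 and 28.8. Most of the excess of sequence 11 over the line thus lay in its first 3 Mb. In brain 2 this follows in part from the split, which was chosen by brain 2 counts. Bin counts of fat body 2 were not used in the choice but had a correlation of 0.56 with those of brain 2.

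The midpoint gave a smaller contrast on sequence 11. Its front portion had 82.1 peaks per Mb (brain 1), 24.8 (brain 2), 218 (fat body 1) and 31.2 (fat body 2), and its rear portion had 86.6 (brain 1), 22.02 (brain 2), 247 (fat body 1) and 24.95 (fat body 2). Their log2 ratio was −0.08 (brain 1), 0.17 (brain 2), −0.18 (fat body 1) and 0.32 (fat body 2). In fat body 1 this was the lowest of the 27 sequences, and in fat body 2 the highest, so the 2 libraries of one tissue went opposite ways. The densest bins of sequence 11 were at 2.5 to 3 Mb and at 11 to 11.5 Mb in brain 2, with 20 peaks each, and at 0.5 to 1 Mb in fat body 2, with 26. The poorest was at 19 to 19.5 Mb in both brain libraries, with 27 peaks in brain 1 and 3 in brain 2, and near 8 to 9 Mb in the fat body libraries, with 86 peaks for fat body 1 and 6 for fat body 2. Bin counts of brain 2 and fat body 2 had a correlation of 0.56 over its 40 full bins.

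For sequence 24 the split points of the libraries numbered 2 lay apart, at 14.5 Mb when chosen in brain 2 and at 8.5 Mb when chosen in fat body 2. Read in fat body 2, the first of these gave 46.3 peaks per Mb before and 55.8 after it (log2 ratio −0.27, 17th of 27). Read in brain 2, the second gave 34.0 before and 33.0 after it (0.04, 23rd of 27). Brain 1 on its own also chose 14.5 Mb. All 4 libraries were denser after that point. In brain 1 the log2 ratio was −0.27, the largest in size of 27 at the splits chosen in brain 2. Those splits were not the best brain 1 cuts of every sequence. At the splits chosen in brain 1 the same value was 10th of 27, and the 24 others reached 0.40 in size. Brain 2 had a log2 ratio of −0.54, while fat body 1 had −0.15 and fat body 2 had −0.27. Brain 1 had 71.2 peaks per Mb before 14.5 Mb and 85.7 after it, and fat body 1 had 229 before and 255 after. Its bin counts in brain 2 and fat body 2 had a correlation of 0.67 over 34 bins, near the median of the others.

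Sequence ends were compared with the rest by taking the outer 1 Mb on each side. Over the 3 sequences together the ends had 86.2 peaks per Mb (brain 1), 27.2 (brain 2), 238 (fat body 1) and 37.2 (fat body 2). Their middle had 80.1 (brain 1), 26.9 (brain 2), 241 (fat body 1) and 34.7 (fat body 2). Over the 24 others the ends were thinner than the middle in both libraries numbered 2, with 23.8 peaks per Mb at the ends and 26.2 in the middle in brain 2, and 30.6 and 33.3 in fat body 2. In brain 2, 3 of the 24 others had denser ends than middle, and in fat body 2, 6 of 24. The mean log2 ratio over the 4 libraries for the 3 sequences was 0.05 ± 0.07 (SD, n = 4), within the spread between libraries. It was 0.17 with the 11572 best peaks of each list, 0.14 with an outer 2 Mb and −0.02 with an outer 0.5 Mb.

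The 3 sequences differed from each other at the ends. Sequence 11 had a log2 ratio of 0.43 in fat body 2, the highest of 27, with 46 peaks in its first Mb and 27 in its last. In brain 2 it had 29 in the first Mb and 22 in the last, and a ratio of 0.14. In fat body 1 its first Mb held 197 peaks and its last 231, and the ratio was −0.13. Sequence 23 had thin ends in all 4 libraries, with log2 ratios of −0.06 (brain 1), −0.20 (brain 2), −0.04 (fat body 1) and −0.25 (fat body 2). It ranked 21st (brain 1), 12th (brain 2), 13th (fat body 1) and 15th (fat body 2) of 27. In brain 2, fat body 1 and fat body 2 it was near the medians of the 24 others, −0.24, −0.05 and −0.24. Its first Mb held 14 peaks in brain 2 and 20 in fat body 2, and its last Mb 30 (brain 2) and 33 (fat body 2). In these libraries its last Mb was thus above its density as a whole, 24.97 and 31.1 peaks per Mb. Sequence 24 had denser ends than middle in all 4, at 0.28 (brain 1), 0.02 (brain 2), 0.12 (fat body 1) and 0.02 (fat body 2). In brain 1 and in fat body 1 this ratio was the 4th highest of 27.

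**Figure D3:**
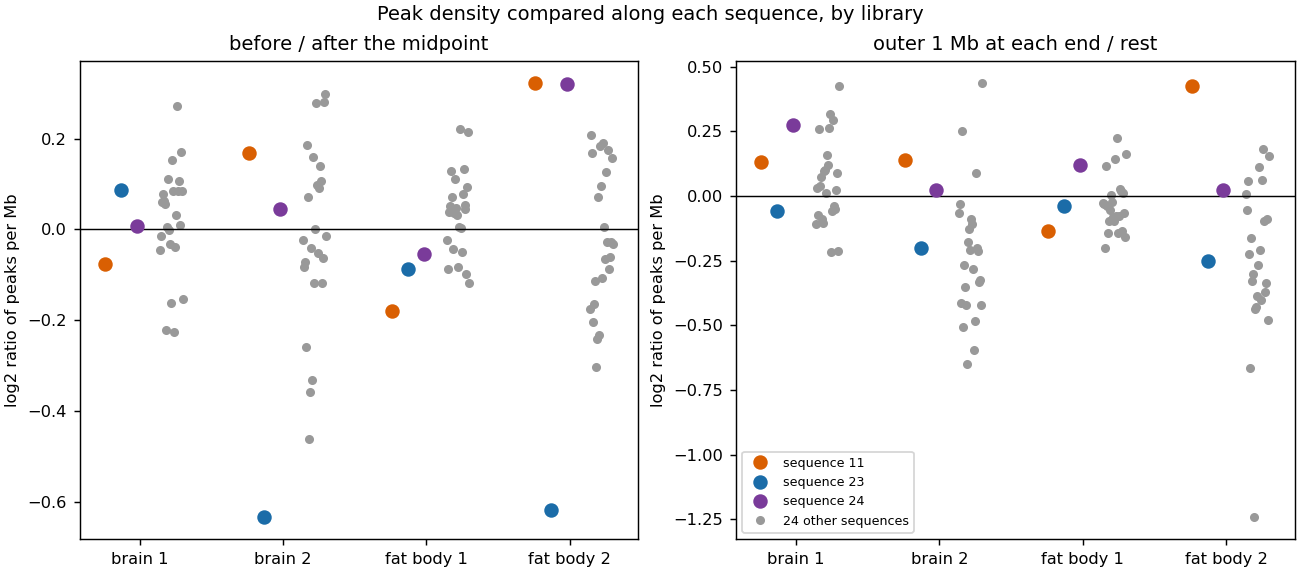
The log2 ratio of peaks per Mb before the midpoint over those after it (left) and in the outer 1 Mb at each end over the rest (right), for each library; coloured points are sequences 11, 23 and 24 and grey points the 24 others, spread sideways for legibility. On the left sequence 23 lies below all others in brain 2 and fat body 2, at −0.63 and −0.62; on the right sequence 11 lies above all others in fat body 2, at 0.43.

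The longest stretch without a peak in any list was 81.1 kb on sequence 11, at positions 11552490 to 11633588, the 5th longest of the 27 sequences' longest gaps. On sequence 23 it was 42.9 kb, at 13733 to 56671 near the start. On sequence 24 it was 28.9 kb, at 1474878 to 1503810, the 25th of 27. Among the 24 others the longest gap of a sequence had a median of 43.3 kb and reached 118.6 kb. The median gap between neighbouring merged regions was 2.28 kb on sequence 11, 2.13 kb on sequence 23, 2.17 kb on sequence 24 and 2.18 kb over the others.

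Merging the peaks of the 4 lists wherever they shared 1 bp or more gave 17463 merged regions on the 3 sequences. On them 13645 regions (78.1%) were in 1 list alone, against 77.9% on the 24 others. Brain-only regions, with a peak in both brain lists and in neither fat body list, numbered 85 (0.487%, exact binomial 95% interval 0.389 to 0.602%), against 0.488% on the 24 others and 0.502% over all merged regions of the series. Fat-body-only regions, defined the same way, numbered 261 (1.49%, 1.32 to 1.69%), against 1.58% on the others and 1.54% over the series. Regions in all 4 lists numbered 139 (0.796%, 0.670 to 0.939%), against 0.836% on the others and 0.825% over the series. The 3 classes thus stood near the background on these sequences. The intervals cover counting over regions only. The brain-only share depends on the lists: it was 5.18% with the 11572 best peaks of each list, 2.11% with peaks of at least 200 bp and 12.8% without brain 2. The fat-body-only share was 65.9% without fat body 2.

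Regions shared across tissue within a library number were more common, on these sequences and over the whole series alike. The size of a class depends on the lengths of its lists, which ran from 11572 (brain 2) to 107057 peaks (fat body 1). Classes that pair tissues across library numbers were not counted, so the classes do not measure likeness between libraries. Regions in brain 2 and fat body 2 alone numbered 644 (3.69%, 3.41 to 3.98%), against 3.48% on the others and 3.59% over the series. Regions in brain 1 and fat body 1 alone numbered 1920 (10.99%, 10.5 to 11.5%), against 11.5% on the others and 11.4% over the series. Sequence 24 was high in the first class and low in the second, inside the range of the 24 others in both. That range was 2.24 to 7.32% for number 2 and 7.75 to 14.6% for number 1. It had 257 regions in brain 2 and fat body 2 alone (5.05%, 4th of 27) and 485 in brain 1 and fat body 1 alone (9.53%, 25th of 27). In the same classes sequence 11 had 3.07% (number 2) and 11.5% (number 1), and sequence 23 had 3.18% (number 2) and 11.7% (number 1), all near the middle of the 27.

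The splits on sequences 11 and 23 were chosen by brain 2 counts. More regions with a brain 2 peak on the denser side therefore follow in part from that choice. Regions in brain 2 and fat body 2 alone numbered 10.3 per Mb over the 24 others, and the dense stretches held more. The first 3 Mb of sequence 11 held 15.7 such regions per Mb and the rest 7.57. Sequence 23 held 6.86 per Mb before 14 Mb and 15.0 after it. On sequence 24 the front portion held 141, which is 16.3 per Mb, and the rear portion 116. Regions of brain 1 and fat body 1 alone went less far: the first 3 Mb of sequence 11 held 28.3 per Mb and the rest 33.5, and sequence 23 held 37.6 per Mb before 14 Mb and 32.1 after it.

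Brain-only regions of sequence 24 were unevenly placed, with 4 in the front portion and 16 in the rear, or 0.156% (0.0426 to 0.3999%) and 0.632% (0.361 to 1.02%) of the merged regions there. Fat-body-only regions did not share this, with 49 in the front portion and 38 in the rear. Regions in all 4 lists numbered 15 in the front and 24 in the rear. On sequence 23 there were 15 brain-only regions before 14 Mb and 16 in the shorter stretch after it, or 0.364% and 0.659% of the merged regions, with overlapping intervals. Fat-body-only regions there numbered 51 before and 44 after, or 1.24% and 1.81%. Sequence 11 had the largest bin of brain-only regions, 7 between 8 and 8.5 Mb, while 22 of its 41 bins had none. Fat-body-only regions were the most frequent in 1 bin of sequence 24, with 8 between 14 and 14.5 Mb. The intervals of the 2 portions of sequence 24 overlapped for brain-only regions, and the counts are small.

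The strongest regions of each class were taken by −log10 q, as a percentile of each list that holds them, averaged. The 2 strongest brain-only regions of sequence 11 both lay in that bin at 8 to 8.5 Mb, at positions 8092510 to 8093067 and 8044055 to 8044643. Fold enrichment at the first was 13.7 (brain 1) and 7.55 (brain 2), and at the second 9.73 (brain 1) and 6.11 (brain 2). The strongest brain-only region of sequence 23 lay at 16764751 to 16765707, with folds of 15.3 (brain 1) and 9.70 (brain 2); the next was at 1773001 to 1773490. On sequence 24 they lay at 11863413 to 11864075, with folds of 10.5 (brain 1) and 5.30 (brain 2), and at 4428350 to 4429323, one of the 4 in the front portion.

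Among fat-body-only regions the strongest of sequence 11 lay at 7683767 to 7684103, with a fold of 20.4 (fat body 1) and 14.7 (fat body 2); the next was at 6958845 to 6959170, with 20.6 (fat body 1) and 14.7 (fat body 2). On sequence 23 they lay at 11236788 to 11237151, with folds of 23.2 (fat body 1) and 13.8 (fat body 2), and at 16884321 to 16885422, with 6.64 (fat body 1) and 14.2 (fat body 2). On sequence 24 they lay at 6462684 to 6463001, with folds of 14.6 (fat body 1) and 11.3 (fat body 2), and at 2790959 to 2792602, with 15.6 (fat body 1) and 11.1 (fat body 2). Fold values of different lists have different floors and were not compared between lists. Gene models of the same build were not used here, so these regions are given by position alone.

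The strongest region present in all 4 lists on sequence 11 lay at 14707994 to 14708727, and its summit stood at the same base, 14708540, in brain 1, fat body 1 and fat body 2. Its fold was 13.8 (brain 1), 10.4 (brain 2), 22.5 (fat body 1) and 23.7 (fat body 2). Another lay at 8237810 to 8238451. On sequence 23 they lay at 15396825 to 15397860 and 15940346 to 15941530. In the second of these the summit was at 15941086 in brain 1 and in fat body 1 and at 15941087 in fat body 2. On sequence 24 they lay at 12941748 to 12943370 and 14986001 to 14987016, and in the second the summits of fat body 1 and fat body 2 were 14986897 and 14986896. Other summits lay elsewhere in these regions, at 14708406 on sequence 11 (brain 2), at 15941193 on sequence 23 (brain 2), and at 14986797 (brain 1) and 14986850 (brain 2) on sequence 24.

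Within a tissue, the share of the regions of a library numbered 2 that was found again in the library numbered 1 was lower on sequence 24 than on sequences 11 and 23. Of the merged regions of brain 2, brain 1 held 46.3% on sequence 11, 40.2% on sequence 23 and 30.7% on sequence 24, against 39.3% on the 24 others. Of those of fat body 2, fat body 1 held 37.5% on sequence 11, 38.1% on sequence 23 and 32.5% on sequence 24 (26th of 27), against 39.3% on the others. Pooled over the 3 sequences this last share was 35.7% (33.6 to 37.8%), against 39.3% (38.4 to 40.1%) on the others. Look-ups across tissue and number were also lowest on sequence 24 of the 3. Fat body 1, the longest list, held 50.9% (sequence 11), 48.6% (23) and 46.9% (24) of the brain 2 regions, against 49.5% on the others. Brain 1 held 16.3% (sequence 11), 14.1% (23) and 10.5% (24) of the fat body 2 regions, against 15.0% on the others. The part of list length in these shares was not tested. Of the regions of brain 2, fat body 2 held 61.9% on sequence 11, 65.1% on sequence 23 and 72.4% on sequence 24, against 66.9% on the others. In the reverse look-up, brain 2 held 51.6% of the fat body 2 regions on sequence 11, 52.1% on sequence 23 and 50.7% on sequence 24 (20th of 27), against 52.4% on the others.

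The shares within a tissue, and that of brain 2 in fat body 2, moved with density over the 24 others as well. The share of brain 2 regions found in brain 1 had a correlation of −0.78 with the density of brain 2 (Pearson, n = 24 sequences that share both libraries), and the share of fat body 2 regions found in fat body 1 had −0.78 with the density of fat body 2. The share of brain 2 regions found in fat body 2 had 0.79 with the density of brain 2. With sequence length the correlations were 0.84, 0.76 and −0.87 for these 3 shares, so density and length cannot be told apart here. Within number 1, fat body 1 held 50.8% of the brain 1 regions on sequence 11, 54.4% on sequence 23 and 51.9% on sequence 24, against 53.2% on the others.

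**Figure D4:**
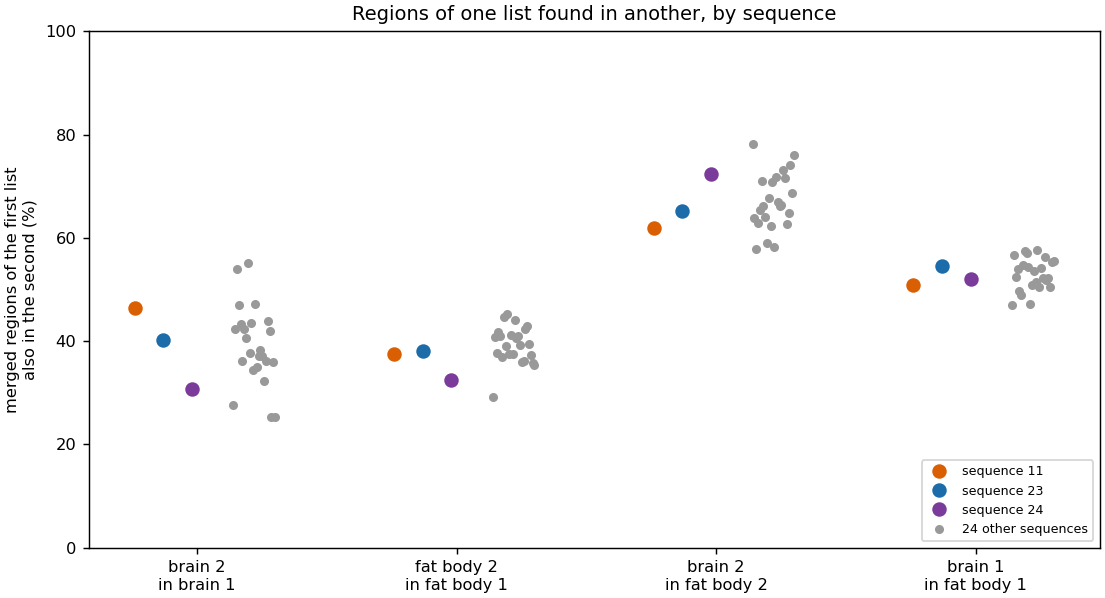
Percent of the merged regions of one list that were also in a second list, for 4 pairs of lists; coloured points are sequences 11, 23 and 24 and grey points the 24 others, spread sideways for legibility. Sequence 24 is low when a list numbered 2 is looked up in the list numbered 1 of its tissue (30.7% and 32.5%) and high when brain 2 is looked up in fat body 2 (72.4%).

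The shares also varied inside the sequences. Over the first 3 Mb of sequence 11, fat body 1 held 23.5% of the fat body 2 regions (16.7 to 31.6%), and over its rest 41.9% (37.2 to 46.7%). On sequence 23, fat body 1 held 41.8% (36.5 to 47.2%) before 14 Mb and 34.2% (28.98 to 39.7%) after it. Brain 1 held 40.2% of the brain 2 regions over the first 3 Mb of sequence 11 and 48.0% over its rest, with intervals that overlap. On sequence 24, brain 1 held 25.5% (20.6 to 30.9%) of them in the front portion and 36.0% (30.4 to 41.9%) in the rear.

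Between tissues the 3 sequences took like shares of the lists. Of the peaks on the 27 sequences they held 13.7% (brain 1), 14.5% (brain 2), 13.8% (fat body 1) and 14.7% (fat body 2). Their mean was 14.1 ± 0.541% in brain and 14.2 ± 0.657% in fat body (SD, n = 2 libraries each), a difference of −0.175 percentage points. In the exact two-sided permutation test over the 4 libraries p was 0.667, and the smallest p this design allows is 0.333. The sign is not stable: the difference was 0.567 with the 11572 best peaks of each list, 0.207 without brain 1 and 0.289 without fat body 2. Both libraries numbered 2 had a higher share than both numbered 1. With 2 libraries per tissue and a smallest p of 0.333, this test could not detect a difference between tissues of any size.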

How the data were processed

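The submitters' processing notes name MACS2 2.1.0, deepTools 3.3.0, Bowtie2, Picard and Trim Galore, with no settings. Cutoff codes appear only in the peak names. The authors deposited 1 peak list per library, not on pooled reads. In the deposited lists each peak has an integer score, a fold enrichment (a ratio to local background), a −log10 q and a −log10 p. These values were used only within a list. No read count is given, so depth is unknown.

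From the lists, each peak was placed by its summit, and coordinates are 1-based. Local background was recovered from fold and −log10 p, with 1 added to pile-up and to background in the ratio and a Poisson p; this worked for 96.5 to 99.2% of peaks. Density is peaks per Mb of sequence. Classes come from peaks merged at an overlap of 1 bp. Intervals are exact binomial (Clopper-Pearson) at 95% and cover counting error only. The length line, the split points and the comparison of library numbers were added after the lists were seen. The members and the regions listed were chosen with earlier results of these data known. Regions named are the 2 per class and sequence highest by mean percentile of −log10 q within their lists; bins named are the richest and poorest of 0.5 Mb. Scripts were tested on simulated data. Python 3.11.15, pandas 2.3.3 and scipy 1.17.1 were used. The libraries of a tissue may be technical repeats, so the spread between them may be technical.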

Additional observations from a re-analysis of the deposited data

How the results depend on the processing

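Of the recomputed values of the main comparisons, 134 stayed within their spread or interval, 14 moved further and 3 reversed. The spread was that between libraries, or, for the length line, that of the 24 other sequences about the line in 1 library. Leaving out 1 of 4 libraries cannot move a mean beyond the SD of the 4. Such values of the density, midpoint and end ratios therefore had to stay within it. They are counted in the 134, as are length-line values of lists that a setting left unchanged. Of the 134, 7 changed sign near 0: before over after the midpoint on sequence 24 (0.08) to −0.04 with the best peaks, −0.08 at a split of 60% and −0.001 without fat body 2; the same on sequence 11 (0.06) to −0.03 without fat body 2; sequence 23 over the others (−0.02) to 0.009 with sequence 1 and 0.003 without fat body 2; and ends over middle (0.05) to −0.02 at an outer 0.5 Mb. The log2 ratio of ends over middle of the 3 sequences (0.05) was 0.17 with the 11572 best peaks of each list and 0.14 with an outer 2 Mb. The brain-only share (0.487%) was 5.18% with the best peaks of each list, which cuts fat body 1 most, and 2.11% with peaks of at least 200 bp. The fat-body-only share (1.49%) was 1.30% with peaks of at least 200 bp and 1.31% at an overlap of 50% of the shorter peak. Leaving out each library gave 0.675 to 12.8% brain-only and 2.28 to 65.9% fat-body-only, since a tissue then rests on 1 list; without fat body 2 the fat-body-only share was 65.9%, and without brain 2 the brain-only share was 12.8%. The difference between tissues (−0.175 points) turned to 0.567 with the best peaks of each list, 0.207 without brain 1 and 0.289 without fat body 2, over a range of −0.640 to 0.289; the cause was not tested. The replicate block gave −0.175 (exact p 0.5, its smallest possible); the titles share only numbers, and the deviations of the same number had a correlation of 0.716 over 833 bins, the same for both numbers by construction. With each library left out in turn, the mean log2 ratio of sequence 24 over the others ranged over 0.04 to 0.28 (0.17 with all 4), and that of sequence 23 before over after its midpoint over −0.45 to −0.21 (−0.31 with all 4). Excess over the length line kept its rank with joined peaks, without sequence 2 and with sequence 1, and with covered bases except that sequence 11 was 4th of 27 in fat body 2. The 200 bp minimum left brain 2 and fat body 2 as they were, the −log10 q minimum left fat body 2, and equal lists left brain 2, so these say nothing there. At bins of 0.2 Mb the correlation of brain 2 and fat body 2 on sequence 23 was 0.77, the highest; at 1 Mb it was 0.93, the 2nd highest. Depth is unknown, so no value has a depth-based limit.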
